A study of Mus musculus with 20 samples.

Results

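Parvalbumin (Pvalb) interneurons were selected from single nuclei RNA-sequencing of the mouse hippocampus by the unique molecular identifiers (UMIs, counted RNA molecules) of 12 genes. A nucleus was taken when Gad1 and Gad2 together had at least 2 UMIs, Pvalb at least 1, and Lhx6 and Btbd11 together at least 1, with Sst, Vip, Mog, Pdgfra, Csf1r and Aqp4 at 0 and Lamp5 at 1 or less. This left 115 Pvalb nuclei of 160777 nuclei in all, or 0.0715%. They were 3.13% of the 3672 GABAergic nuclei (exact 95% binomial interval 2.59 to 3.75%), which were all nuclei with at least 2 UMIs of Gad1 and Gad2 and none of the 4 glial genes. The hippocampi came from 20 male mice of 4.5 to 5.5 months, 1 library per mouse, of wild-type (WT) littermates or of APP/PS1 (APPSwe/PS1ΔE9) mice, which carry transgenes of familial Alzheimer's disease driven by the mouse prion promoter. Mice were awake, or had 3 h of isoflurane at 5% lowered to 1.5% (ISO), or 3 h of ketamine at 150 mg/kg with xylazine at 12 mg/kg (KETA), and were killed at once afterwards. The Pvalb nuclei numbered 34 in 6 WT-Awake mice, 26 in 3 APP/PS1-Awake mice, 21 in 3 WT-ISO mice, 19 in 4 APP/PS1-ISO mice, 4 in 2 WT-KETA mice and 11 in 2 APP/PS1-KETA mice.

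Parvalbumin is a calcium-binding protein of fast-spiking interneurons, which arise from the medial ganglionic eminence and inhibit the soma and the axon initial segment of pyramidal cells. Their brief spikes need fast potassium channels of the Kv3 family, their terminals release GABA with little delay, and they are known for pacing gamma rhythms in the hippocampus. Excitatory drive onto them is set up through the neuregulin receptor Erbb4. Isoflurane acts largely through GABA-A receptors and ketamine blocks NMDA receptors, and both receptor families are present on these cells.

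Pvalb itself (ENSMUSG00000005716, GRCm38 chr15:78191114-78206400, minus strand) was counted thinly, so the members are described with that limit first. Of the 115 nuclei, 91 had 1 Pvalb UMI, 20 had 2, 3 had 3 and 1 had 4. Just outside the threshold stood 1135 nuclei that met every other condition with no Pvalb UMI, so 9.2% of 1250 such nuclei (exact 95% interval 7.66 to 10.9%) held the transcript. Excitatory nuclei (at least 2 UMIs of Slc17a7 and none of Gad1 or Gad2), which should lack it, had a Pvalb UMI in 0.842% of 10218 nuclei at a median depth over mice of 3627 UMIs. In the GABAergic nuclei as a class the median over mice was 3162 UMIs. A further 74 GABAergic nuclei had a Pvalb UMI and failed another condition. Among the members, Gad1, the main enzyme of GABA synthesis, had a UMI in 106 nuclei and Gad2, its synaptic partner, in 82. Btbd11 was counted in 111 nuclei and the transcription factor Lhx6 in 24. Slc17a7, the vesicular glutamate transporter of excitatory neurons, had a UMI in 16 nuclei, 10 of them with a single one.

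The libraries held 9243992 to 25394891 UMIs, and Pvalb nuclei had a median of 5630 UMIs (1368 to 21019) and 2646 genes each. Per mouse they numbered 0 to 14 and summed to at most 94075 UMIs, with 4833 as the smallest sum among the 19 mice that had any. Mouse numbers 1 to 4 stood apart, with 0.319 to 0.892% mitochondrial UMIs in Pvalb nuclei against 0 to 0.145% in the other 15 mice, and Sst nuclei made up 12.7% of their GABAergic nuclei against 2.75% elsewhere. The labels give no sequencing batch. Between any 2 libraries 5 to 35 cell barcodes were shared, and 5 of the Pvalb nuclei had a barcode found in another library. Such sharing was not particular to them. The 160777 nuclei had 157472 distinct barcodes, and 3251 of these were in more than 1 library, each standing for more than 1 nucleus. Prnp, the gene whose promoter drives the transgenes, lay at 63.6 to 433 CPM (UMIs scaled to a sum of 1000000) over all nuclei of mice labelled APP/PS1 and at 42.2 to 196 CPM in those labelled WT. These ranges overlapped, so genotype differences below are between mice as labelled.

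A promoter window of Pvalb and of Syt2, the fast calcium sensor of release, is shown because they belong to genes that led the Pvalb nuclei. Both are RefSeq windows of GRCm38.p6, from 250 bases before to 50 bases after the start, read 5′ to 3′ on the gene's strand. RefSeq gives a further window for each gene, not shown, at chr15:78204188-78204487 for Pvalb and chr1:134709050-134709349 for Syt2, both with 0 matches to the motif. The capitals mark TGACCTT, the reverse complement of AAGGTCA, the site bound by oestrogen-related receptors such as Esrrg.
Pvalb, chr15:78206351-78206650, minus strand: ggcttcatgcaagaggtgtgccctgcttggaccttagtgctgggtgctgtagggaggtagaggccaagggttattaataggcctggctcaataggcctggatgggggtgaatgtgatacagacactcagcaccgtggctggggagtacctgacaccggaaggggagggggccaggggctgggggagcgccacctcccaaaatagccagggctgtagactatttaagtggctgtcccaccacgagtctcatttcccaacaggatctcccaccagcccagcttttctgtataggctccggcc
Syt2, chr1:134646362-134646661, plus strand: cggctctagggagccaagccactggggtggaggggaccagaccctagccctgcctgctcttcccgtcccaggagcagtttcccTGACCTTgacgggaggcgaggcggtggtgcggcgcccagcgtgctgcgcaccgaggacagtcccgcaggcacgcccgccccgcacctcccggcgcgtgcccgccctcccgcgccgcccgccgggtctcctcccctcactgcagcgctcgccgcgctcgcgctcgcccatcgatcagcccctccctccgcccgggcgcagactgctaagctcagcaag
The motif, searched on both strands, was in 1 of 13 windows of the 11 leading genes that RefSeq matched, the one of Syt2 shown, and in 4.72% of all 32851 windows of this length. A match of these letters is a description of the window alone.

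Against the other 3483 GABAergic nuclei without Pvalb, several transcripts of fast-spiking cells of the medial ganglionic eminence were higher in the Pvalb nuclei. All levels in this comparison are CPM summed over the nuclei of a class and are given with no test, since the nuclei were chosen on expression. Erbb4, the neuregulin receptor, was at 7918 CPM against 4802 CPM. The 18 neuregulin and adhesion genes summed to 39950 against 35920 CPM, with Erbb4 the larger part of that gap. The Kv3 channel subunits followed, with Kcnc2 at 2112 against 1163 CPM and Kcnc1 at 469 against 233 CPM. The 21 potassium and sodium channel genes of their list summed to 8735 against 6300 CPM. The transcription factors Sox6 and Satb1, which mark cells of this origin, stood at 326 and 266 CPM against 141 and 123 CPM. Mef2c, a factor of interneuron maturation, was at 908 against 500 CPM. The list of 16 transcription factor genes that holds them summed to 2763 against 2107 CPM. That gap is smaller than the one of Sox6, Satb1 and Mef2c together, so the rest of the list was not higher in sum. Sox6 and Satb1 were as high in Sst nuclei, at 317 and 266 CPM, and Sox6 was low in Vip and Lamp5 nuclei, at 15.8 and 5.84 CPM.

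In several other lists single members were higher while the rest of the list or its sum was about level or lower. Of the 7 genes of mitochondrial biogenesis 2 were higher, and the other 5 summed to 209 against 204 CPM. Ppargc1a, the coactivator of mitochondrial biogenesis, was at 262 against 117 CPM, and the nuclear receptor Esrrg was at 796 CPM against 316 CPM in the other GABAergic nuclei and 303 CPM in Sst nuclei. The list of fast release genes summed to 8185 against 8063 CPM, AMPA and kainate subunits to 8867 against 9065 CPM, neuropeptides and modulatory receptors to 895 against 1529 CPM and the mitochondrial genome to 2269 against 2625 CPM. Among the higher members, Syt2 was at 125 against 29.3 CPM, the release regulator Cplx1 at 110 against 49.3 CPM and the calcium channel subunit Cacna2d2 at 290 against 97.3 CPM. Among receptors, the GABA-A subunits Gabrg3 and Gabrd (the extrasynaptic delta subunit) stood at 2376 and 73.8 CPM against 1509 and 29.9 CPM, and the AMPA subunits Gria3 and Gria4 at 1039 and 1886 CPM against 635 and 1338 CPM. The delta opioid receptor Oprd1 was at 121 against 60.6 CPM and the muscarinic receptor Chrm2 at 246 against 121 CPM. Acan and Hapln4, parts of the perineuronal net that wraps these cells, were at 14.8 and 17.5 CPM against 3.21 and 4.95 CPM. The 10 genes of the perineuronal net list summed to 693 against 596 CPM, so there the sum was higher too. Gad1 was about level, at 349 against 355 CPM, while Gad2 was at 185 against 402 CPM.

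Genes of other interneuron classes were at lower levels. Adarb2, a gene of interneurons from the caudal ganglionic eminence, was at 567 against 3148 CPM. The cannabinoid receptor Cnr1, which marks Cck basket cells, was at 36.3 against 221 CPM, and the neuropeptide Npy at 9.4 against 64.3 CPM. The kainate subunit Grik1 was at 481 against 986 CPM, and the NMDA subunits Grin2a and Grin3a at 975 and 71.2 CPM against 1721 and 182 CPM.

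**Figure D1:**
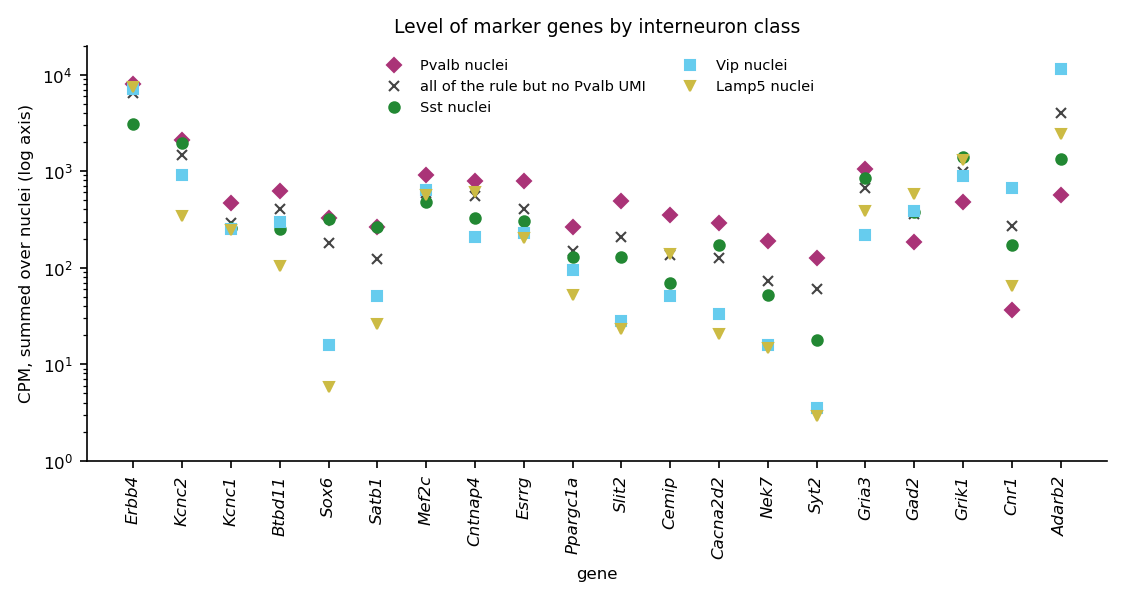
Levels of 20 genes (CPM summed over nuclei, log axis) in Pvalb nuclei, in nuclei that met the rule but for Pvalb, and in Sst, Vip and Lamp5 nuclei, to be read within a gene. Pvalb nuclei had the highest marker for Erbb4 at 7918 CPM and the lowest for Adarb2 at 567 CPM, and the nuclei without a Pvalb UMI lay between them and the other classes for genes such as Syt2.

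The 15 genes of at least 50 CPM with the largest ratio to the other GABAergic nuclei were Pvalb, fixed by the rule, and Mypn, Myo1e, Nek7, Syt2, Lrmda, Gsg1l, A930029G22Rik, Tmem44, Cemip, Slit2, Agbl1, 6330411D24Rik, Tll1 and Gm28501. Their ratios ran from 6.37 for Mypn, a sarcomere protein gene, to 3.42 for Gm28501. In oligodendrocyte nuclei Myo1e and Lrmda were higher than in Pvalb nuclei, at 174 and 205 CPM against 94.0 and 111 CPM, and the other genes lower. In nuclei that met the rule but for Pvalb, each gene except Pvalb lay between the 2 classes, with Nek7 at 72.7 CPM and Slit2 at 207 CPM. Nek7, a mitotic kinase gene, was 4.26 times as high and had a UMI in 71 nuclei of 17 mice, and Gm28501 lies within its interval on the opposite strand of chromosome 1, so their values are uncertain where counting did not use strand. Slit2, an axon guidance ligand, was at 485 against 131 CPM with UMIs in 88 nuclei, and Cemip, a hyaluronan-binding protein gene, was at 354 CPM with UMIs in 77 nuclei.

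Depth differed between classes, so detection was also read after thinning each nucleus to 1500 UMIs, which left out 1 Pvalb nucleus and 296 of the other GABAergic nuclei. Erbb4 was then found in 95.6% of Pvalb nuclei, 73.5% of other GABAergic nuclei and 2.04% of excitatory nuclei. Kcnc2 was in 88.6%, 57.4% and 27.6% of the same classes. Nxph1, a neurexin ligand of these interneurons, was in 83.3%, 62.7% and 1.21%, and Syt2 in 14.9%, 3.45% and 1.04%. Adarb2 went the other way, with 11.4% of Pvalb nuclei, 48.2% of other GABAergic nuclei and 25.5% of excitatory nuclei. Without thinning, 111 of the 115 nuclei had an Erbb4 UMI and 110 had both Erbb4 and Kcnc2.

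Within the Pvalb nuclei, markers of subtypes were found in parts of the class. Syt2, of basket cell terminals, had UMIs in 47 nuclei and the tachykinin gene Tac1 in 22, with both in 7 and neither in 53. Pthlh, a peptide hormone gene, was counted in 6 nuclei and Unc5b, of axo-axonic cells, in 8, which is too few to divide the class.

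A small set of nuclei went against the label. Adarb2 had no UMI in 94 nuclei but 3 to 121 UMIs in 16 nuclei from 9 mice, 6 of them Awake, 8 ISO and 2 KETA. In those 16 nuclei Erbb4 was at 5098 CPM against 8595 CPM in the other 99, and Nxph1 at 985 against 1978 CPM. Cnr1 was at 139 against 11.7 CPM, with UMIs in 4 of the 16. Zfhx3, a homeobox transcription factor gene, was at 0 in 12 of the 16 nuclei, with 31 of its 33 UMIs in 2 nuclei, 20 in mouse 20 and 11 in mouse 16. The ephrin receptor Ephb1 was at 0 in 10 of the 16, with 25 of its 32 UMIs in the nucleus of mouse 20. The median depth was 8545 UMIs in the 16 nuclei and 5570 in the others. Erbb4 was at 0 in 4 nuclei, all of them in ISO mice and all with Adarb2. The only nucleus of APP/PS1-ISO mouse 20 was one of these, with 37 Adarb2 UMIs and none of Erbb4 or Kcnc2. These nuclei met the rule and are counted as members, and the fits were repeated without them.

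**Figure D2:**
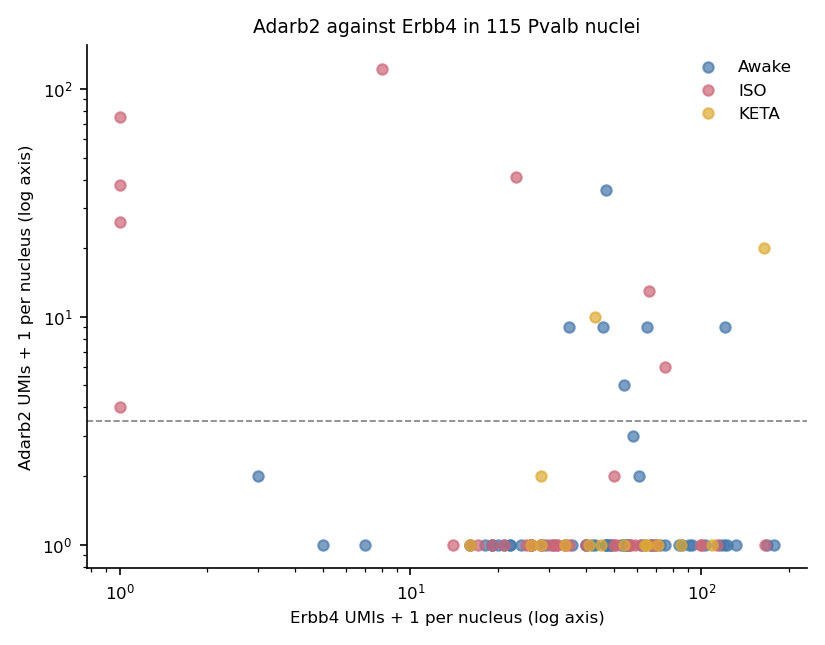
Adarb2 against Erbb4 UMIs (plus 1, log axes) in each of the 115 Pvalb nuclei, coloured by state, with a dashed line between 2 and 3 Adarb2 UMIs. The 16 nuclei above the line include the 4 at the left edge without any Erbb4 UMI, all from ISO mice.

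The number of Pvalb nuclei was compared between states as a share of GABAergic nuclei per mouse. In the 9 Awake mice the share was lowest at 0% in mouse 19, with a median of 2.65% and a high of 7.14%. The 0 of 124 GABAergic nuclei in mouse 19 allows a share of up to 2.42% by counting error alone (3 counts), and the two-sided exact interval in the plot reaches 2.93%. In the 7 ISO mice the share ran from 0.526% over a median of 2% to 5.24%, and in the 4 KETA mice it was 2.02%, 2.48%, 2.53% and 4.96%. The ranges overlapped in full. The mean was 2.64% ± 1.87 (SD, n = 7) in ISO and 3.47% ± 2.44 (SD, n = 9) in Awake mice, a difference of -0.835 percentage points (two-sided exact permutation test, p = 0.462, where the design allows 8.74e-05). For KETA it was 3.00% ± 1.33 (SD, n = 4), a difference of -0.472 points (exact permutation test, p = 0.715, where 0.0014 is the smallest possible). APP/PS1 mice had 3.22% ± 2.17 (SD, n = 9) and WT mice 2.98% ± 1.96 (SD, n = 11), a difference of 0.237 points (exact permutation test, p = 0.799). Adjusted over these 3 comparisons each p was 0.799. Within mice 1 to 4, which hold 1 mouse of each ISO and Awake group, the ISO difference was -0.676 points and the genotype difference 3.44 points. A share of 1-UMI calls depends on depth, and at 1500 UMIs per nucleus only 10 Pvalb nuclei of 1372 GABAergic nuclei were left. Intervals on single shares cover counting error only.

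**Figure D3:**
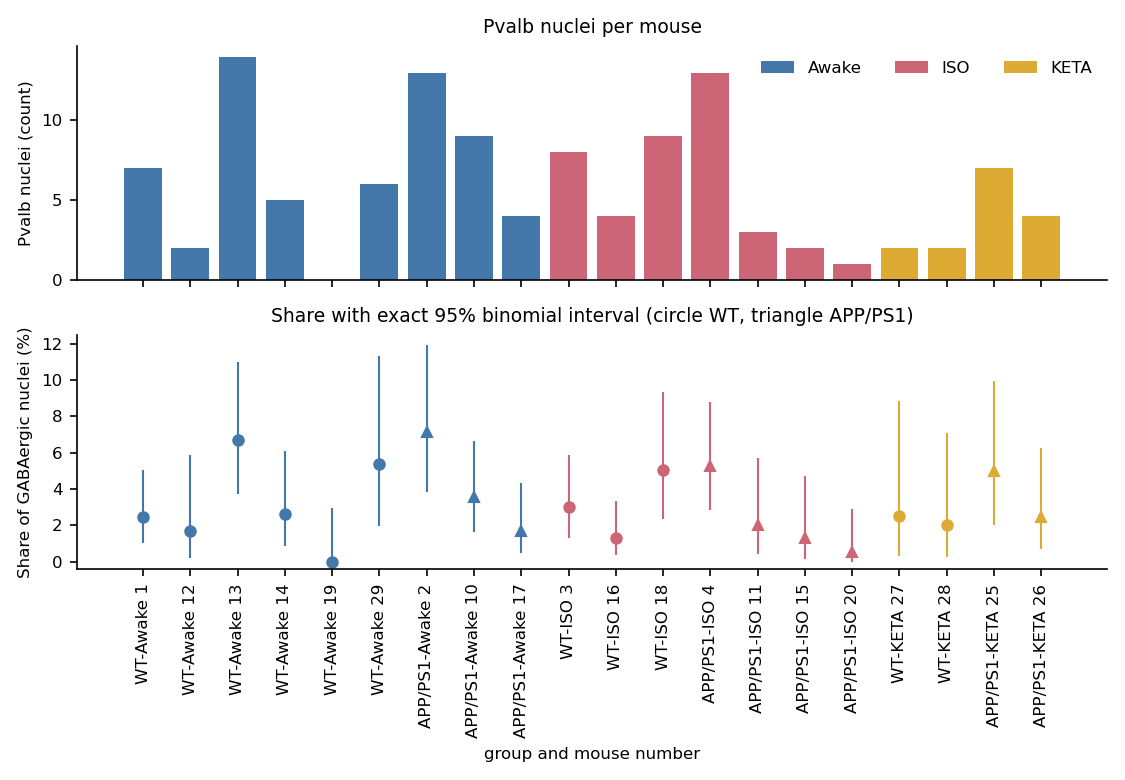
Number of Pvalb nuclei per mouse (top, count) and their share of GABAergic nuclei (bottom, percent, with exact 95% binomial intervals), by group and mouse number. The intervals of most mice overlap, from 0% in WT-Awake mouse 19 to 7.14% in APP/PS1-Awake mouse 2.

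Since the members were chosen on Pvalb, its level was tested in a pool of 1469 nuclei chosen without it, by Gad1, Gad2, Lhx6, Btbd11, Vip, Lamp5 and the glial genes alone. The pool contains the members, and every pool nucleus with a Pvalb UMI and no Sst UMI is a member. Most of its Pvalb UMIs are thus those of the rule, and this test does not stand apart from the share comparison. It rests on 0 (mouse 19) to 29 (mouse 2) Pvalb UMIs per mouse, with 2 in mice 12, 15, 20, 27 and 28. Per mouse, Pvalb in this pool ran from 0 over a median of 19.1 to 62.7 CPM in Awake mice, from 5.45 over 14.4 to 57.8 CPM in ISO mice and from 10.3 to 18.1 CPM in KETA mice. The states overlapped here too. On the log2(CPM + 1) scale the mean was 4.08 ± 1.13 (SD, n = 7) in ISO and 4.08 ± 1.68 (SD, n = 9) in Awake mice (two-sided exact permutation test, p = 0.9995). The KETA difference was -0.12 (exact permutation test, p = 0.877) and the genotype difference 0.21 (exact permutation test, p = 0.762), and all 3 were at 0.9995 after adjustment. The pool of mice 1 to 4 held a median of 43.9 CPM against 15.5 CPM in the others.

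Gene expression in Pvalb nuclei was then compared with edgeR's quasi-likelihood test on UMIs summed per mouse, in 1 fit of 19 mice and 848 genes that passed the filter on low counts. The biological coefficient of variation was 0.425, and the median standard error of a log2 fold change was 0.39 for ISO and 0.53 for KETA against Awake.

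Between ISO and Awake mice 0 of 848 genes (0%) passed an adjusted p of 0.05, and 43 (5.07%) had an unadjusted p under 0.05, 16 higher and 27 lower. DESeq2 called 0 genes as well, and the smallest adjusted p of edgeR was 0.284. The genes named next are the 5 with the smallest unadjusted p in each direction, and none passed the test. Prickle1, a planar polarity gene, was at 207 to 760 CPM (median 441) in the 8 Awake mice with Pvalb nuclei and at 110 to 327 CPM (median 142) in the 7 ISO mice, a log2 fold change of -1.23 ± 0.32 (SE, unadjusted p = 0.000963). Kcnh7, an ERG-type potassium channel gene, was at 828 to 1715 CPM (median 1316) in Awake and 220 to 873 CPM (median 585) in ISO mice, a log2 fold change of -1.17 ± 0.33. For Kcnh7 the ranges overlapped narrowly, with 1 ISO mouse above 2 of the Awake mice.

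Pde11a, a phosphodiesterase that breaks down cyclic AMP and GMP, had UMIs in all 8 Awake mice, at 22.0 to 450 CPM (median 265). In the ISO mice 4 of 7 were at 0 and the highest stood at 88.4 CPM, a log2 fold change of -2.67 ± 0.69 (adjusted p = 0.284). The ISO mice at 0 were mice 11, 15, 16 and 20, which had the fewest Pvalb nuclei, 3, 2, 4 and 1, and 4 of these 10 nuclei were the ones with Adarb2 and without Erbb4. Without the 16 nuclei of 3 or more Adarb2 UMIs, Pde11a was at 0 in 3 of the 6 ISO mice left. Its log2 fold change was then -2.38 ± 0.79 (adjusted p = 0.631 by edgeR). By nucleus Pde11a was found in 17 of 60 in Awake and 5 of 40 in ISO mice. Cttnbp2, a regulator of cortactin in dendritic spines, was at 414 to 1012 CPM (median 554) in Awake and 109 to 486 CPM (median 220) in ISO mice. Fgf13, which modulates sodium channels, was at 525 to 2963 CPM (median 891) in Awake and 0 to 881 CPM (median 318) in ISO mice. In all 5 genes the ISO median was below the lowest Awake mouse, which only describes genes picked by their p in this same comparison.

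In the other direction stood Myt1l, a neuronal transcription factor, at 213 to 718 CPM (median 497) in Awake and 511 to 2072 CPM (median 780) in ISO mice, a log2 fold change of 0.84 ± 0.29. Adam23, an adhesion protein of the Lgi1 complex, was at 160 to 380 CPM (median 237) and 220 to 578 CPM (median 484), and 2210408I21Rik had a log2 fold change of 1.30 ± 0.41. Adarb2 and Zfhx3, with log2 fold changes of 3.35 ± 0.93 and 4.23 ± 1.43, rest on the nuclei set apart above, Zfhx3 on 2 of them, without which neither passed the filter on low counts and 6 Adarb2 and 3 Zfhx3 UMIs were left in 99 nuclei. Adarb2 was at 0 to 911 CPM (median 53.2) in Awake and 0 to 8151 CPM (median 1349) in ISO mice, and Zfhx3 was at 0 in 5 of the 7 ISO mice with a highest value of 2181 CPM. Adarb2 is 1 of 14 markers of other interneuron classes, which summed to 0 to 1191 CPM (median 220) in Awake and 80.6 to 8701 CPM (median 1493) in ISO mice. Without Adarb2 the other 13 summed to 0 to 308 CPM (median 127) in Awake and 0 to 551 CPM (median 145) in ISO mice, so most of the ISO sum was Adarb2 itself. Of the 14 markers 10 had a UMI and Sst, Vip, Htr3a and Chodl were at 0, and their part in the other ISO values was not tested.

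**Figure D4:**
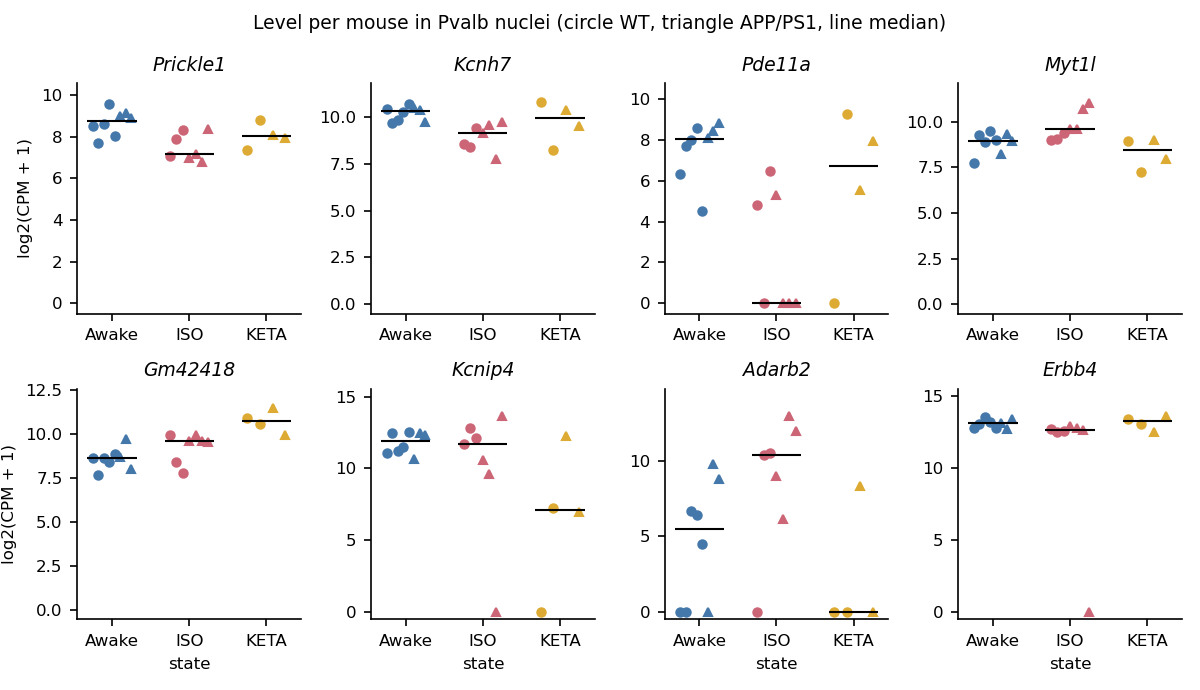
Level of 8 genes in the summed Pvalb nuclei of each mouse (log2 of CPM plus 1) by state, with circles for WT, triangles for APP/PS1 and a line at the median. Pde11a lies at 0 in 4 of the 7 ISO mice, Gm42418 is above all Awake mice in the 4 KETA mice, and the APP/PS1-ISO point at 0 for Erbb4 is mouse 20, which had 1 Pvalb nucleus.

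By role, the channel, receptor and adhesion genes of these cells did not separate ISO from Awake mice at this depth. Of 21 genes of fast-spiking potassium and sodium channels 10 were tested and 0 passed, with a median log2 fold change of -0.30 against -0.02 over all genes tested. Of 12 GABA-A receptor subunits 4 were tested, of 7 NMDA subunits 3, of 9 AMPA and kainate subunits 6, and of 18 neuregulin and synaptic adhesion genes 14, with 0 passing in each and medians of -0.13, -0.01, -0.24 and -0.18. Erbb4 was at 6794 to 12060 CPM (median 8916) in Awake mice. In ISO mice it was at 0 in mouse 20 and otherwise up to 7630 CPM (median 6388), and its log2 fold change was -0.41 in WT and -0.68 in APP/PS1 mice. Without the 16 nuclei of 3 or more Adarb2 UMIs Erbb4 was at 6905 to 13860 CPM (median 8116) in the 6 ISO mice left, with log2 fold changes of -0.09 and -0.37. Of 16 genes of fast release 7 were tested, again with 0 passing. Of 9 genes of GABA synthesis and uptake 4 were tested, among them Gad1 and Gad2, on which the nuclei were chosen, so nothing is read from that list.

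Between KETA and Awake mice 0 of 848 genes (0%) passed with edgeR, and 66 (7.78%) had an unadjusted p under 0.05, 14 higher and 52 lower. DESeq2 called 1 gene, Gm42418, with a log2 fold change of 2.00 and an adjusted p of 0.0178. Gm42418 is a long noncoding RNA gene that overlaps ribosomal RNA sequence. It was at 991 to 2874 CPM in the KETA mice, above every Awake mouse at 207 to 841 CPM (edgeR log2 fold change 1.89 ± 0.42, adjusted p = 0.191). The ISO mice were at 221 to 994 CPM, over much of the Awake range and with the highest just above the lowest KETA mouse. Other genes with small unadjusted p were Dcx, a microtubule gene of young neurons, at 204 to 909 CPM in KETA and 17.5 to 414 CPM in Awake mice, and Cmss1 and Gm45904, with log2 fold changes of 1.97 ± 0.71 and 1.55 ± 0.58. In the lower direction were the ubiquitin-conjugating enzyme Ube2k and the argonaute Ago3, both at 0 in 2 of the 4 KETA mice and at 132 CPM or more in each Awake mouse. The KETA mice were few, with 2 Pvalb nuclei in each WT mouse, and all carried mouse numbers from 25 to 28, in a run shared with Awake mouse 29 alone. With the run of mouse numbers as a term, where the KETA difference leans on that 1 Awake mouse, 0 genes passed, 33 had an unadjusted p under 0.05 and Gm42418 was at 1.63 (adjusted p = 0.974 by edgeR).

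Transcripts of the mitochondrial genome were low in the KETA mice, though not in them alone. They were at 0.00905 to 0.0186% of Pvalb UMIs in KETA mice and at 0.0154% in Awake mouse 29 of the same run, against 0.0207 to 0.629% in the other Awake mice and 0 to 0.892% in ISO mice. Over all nuclei the mice numbered 25 to 29 were at 0.0353 to 0.0747%, and mice 12, 19 and 20 of other runs at 0.0472, 0.0556 and 0.0437%. For KETA 7 of its 13 genes were tested and none passed, with a median log2 fold change of -4.78 that was -0.16 with the run as a term. Grin1, the obligatory NMDA subunit, was at 0 to 371 CPM in KETA mice against 207 to 396 CPM in Awake mice, and the 3 tested NMDA subunits had a median of -0.23 against -0.19 over all genes tested. Of the 4 tested GABA-A subunits the median was -0.31 and of the 10 tested channel genes -0.42, with 0 passing.

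The genotype comparison, over all states, gave 0 of 848 genes (0%). It weighted the states equally, so the 2 WT-KETA mice, with 4 Pvalb nuclei and 12754 UMIs, counted as much as the 6 WT-Awake mice. The unadjusted p was under 0.05 for 52 (6.13%), 45 higher and 7 lower in APP/PS1 mice. The smallest adjusted p was 0.68 and DESeq2 called 0. Leading the higher side were Cntn6, a contactin adhesion gene, at 0 to 211 CPM (median 92.1) in the 10 WT mice and 0 to 982 CPM (median 267) in the 9 APP/PS1 mice, and Herc1, a ubiquitin ligase, at 0 to 418 CPM (median 283) and 280 to 763 CPM (median 426). The adhesion genes Lingo2 and Cntnap5a had log2 fold changes of 1.95 ± 0.63 and 1.00 ± 0.33. Without WT-KETA mouse 28 Herc1 was at 0.961 and Lingo2 at 1.65, and without WT-KETA mouse 27 they were at 2.65 and 3.69. Leaving out each mouse in turn, Cntn6 ran from 3.17 to 3.48 and Cntnap5a from 0.845 to 1.14. Of the 14 tested neuregulin and adhesion genes 11 (78.6%) were on the higher side, as were 61.6% of all 848 genes, with a median of 0.34 against 0.11 over all genes tested. App, the amyloid precursor gene, had a log2 fold change of 0.16 ± 0.32 (adjusted p = 0.9998), with 207 to 1060 CPM in WT and 213 to 1636 CPM in APP/PS1 mice. None of these genes passed the test.

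Whether genotype changed the ISO response was asked with the interaction term of the same fit. It gave 0 of 848 genes (0%), with an unadjusted p under 0.05 for 16 (1.89%), DESeq2 called 0, and its median standard error of 0.77 was the widest of the 4 terms. Ptprn2, a gene of dense-core vesicles, was at 767 CPM in WT-Awake, 721 in WT-ISO, 545 in APP/PS1-Awake and 1135 CPM in APP/PS1-ISO nuclei, summed over mice. Mctp1, a calcium-binding membrane protein gene, was at 163, 330, 304 and 99.1 CPM in the same order. Of the APP/PS1-ISO sum 78638 of 110986 UMIs, from 13 of 19 nuclei, came from mouse 4, so its pooled values lean on that mouse. Within WT the ISO comparison had 0 calls (0%) and 19 genes (2.24%) at an unadjusted p under 0.05. Within APP/PS1 it had 0 calls (0%) and 39 such genes (4.6%). Pde11a had a log2 fold change of -1.71 ± 0.88 in WT and -3.64 ± 1.05 in APP/PS1 mice, and Prickle1 -0.77 ± 0.42 and -1.70 ± 0.48. The difference between genotypes did not pass for any gene.

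Next, the response of Pvalb nuclei was set against that of the other GABAergic nuclei of the same mice, as a difference of the responses in 1 fit of both classes. For ISO 4 of 5778 genes (0.0692%) differed at an adjusted p of 0.05 with edgeR, 3 of them higher (0.0519%) and 1 lower (0.0173%). DESeq2 called 0, and edgeR's unadjusted p was under 0.05 for 230 genes (3.98%). The difference (Pvalb minus other) was 3.12 ± 0.52 for Adarb2 (adjusted p = 8.21e-06), 3.86 ± 0.73 for Zfhx3, 2.73 ± 0.61 for Ephb1 and -2.46 ± 0.54 for Pde11a (adjusted p = 0.0105). Without the 16 nuclei of 3 or more Adarb2 UMIs 0 genes were called, with Pde11a at -2.03 (adjusted p = 0.506). Those nuclei were set apart by Adarb2 itself, so that fit is no test of Adarb2, and Zfhx3 kept 3 UMIs in 99 nuclei, too few to compare. Without mouse 20 alone the differences of Zfhx3 and Ephb1 were 1.09 and 0.63, and without mouse 17 a single gene was called. Pde11a also lost its call without mouse 4 (adjusted p = 0.0682).

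For KETA 1 of 5778 genes (0.0173%) differed. DESeq2 called 0, and edgeR's unadjusted p was under 0.05 for 234 genes (4.05%). The 1 gene was Kcnip4, an auxiliary subunit of Kv4 potassium channels, with a difference of -3.23 ± 0.60 (adjusted p = 0.000338). In Pvalb nuclei Kcnip4 was at 1648 to 6025 CPM in Awake mice and at 0, 124, 152 and 4956 CPM in the KETA mice. The ISO mice ran from 0 to 13090 CPM, and by nucleus Kcnip4 was at 0 in 46 of the 115 and at 10 or more UMIs in 51, up to 191. By state it was at 0 in 24 of 60 Awake and 7 of 15 KETA nuclei, and at 10 or more UMIs in 27 and 6. All 6 of these KETA nuclei came from mouse 25, while mice 26, 27 and 28 held 4, 2 and 2 Pvalb nuclei. The call was lost without mouse 26, 27 or 28, with adjusted p from 0.27 to 0.759.

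Genes that did change in the other GABAergic nuclei can be read beside the Pvalb nuclei. Of 10906 genes tested there, 133 (1.22%) passed for ISO, 56 higher (0.513%) and 77 lower (0.706%). For KETA 142 (1.3%) passed, 67 higher (0.614%) and 75 lower (0.688%). Of these, 34 and 21 were also tested in Pvalb nuclei, where none passed. Gm45904 had a log2 fold change of 1.23 for ISO in the other GABAergic nuclei and 1.07 in Pvalb nuclei, and Maf, a transcription factor of interneurons from the medial ganglionic eminence, 0.60 and 0.72. Osbpl8, a lipid transfer protein gene, had -0.83 and -0.77, and Cacna2d1, a calcium channel subunit, -0.89 and -3.84 ± 1.40. In the 1 fit of both classes the difference for Cacna2d1 was -0.93 ± 0.60 (adjusted p = 0.999), less than the gap between the separate fits. Dlc1, a tumour suppressor gene, had -0.74 and 0.30. For KETA, Gm42418 had 2.12 and 1.89, Cmss1 1.93 and 1.97, and Polb, a DNA repair polymerase, -0.62 and -1.39, while Osbpl8 had -0.73 and 0.58. Both classes came from the same mice and libraries, and no difference between the 2 responses passed for these genes.

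**Figure D5:**
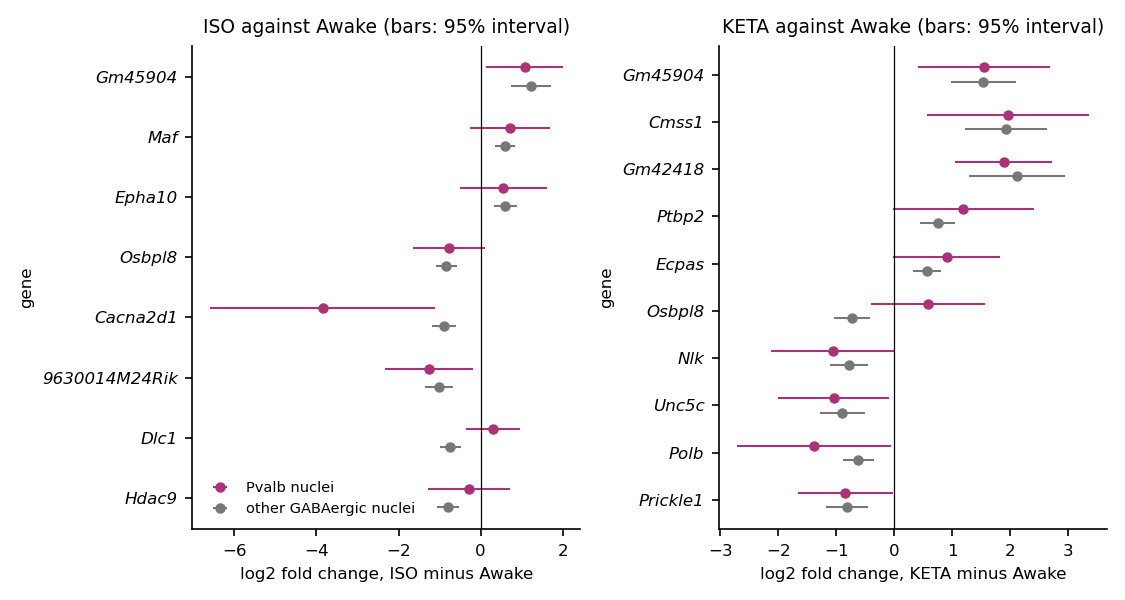
Log2 fold changes with 95% intervals in Pvalb nuclei (purple) and other GABAergic nuclei (grey) for genes called in the latter, ISO at left and KETA at right. The intervals of Pvalb nuclei are wider for all genes but Gm42418 and contain the grey point except for Cacna2d1 (-3.84 against -0.89) and Dlc1 (0.30 against -0.74) under ISO and Osbpl8 (0.58 against -0.73) under KETA. The fit of both classes gave differences of -0.93, 0.82 and 0.93 for these, none of which passed.

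Transcripts of other cell types were present at low levels in the Pvalb nuclei. Of 8 oligodendrocyte markers 7 had UMIs, 184 CPM in sum against 12340 CPM in oligodendrocyte nuclei, with Mog at 0 by the rule. Per mouse they summed to 42.2 to 828 CPM in Awake, 0 to 403 CPM in ISO and 0 to 303 CPM in KETA mice. Of 7 astrocyte markers 6 had UMIs at 242 CPM in sum, of 6 microglial markers 5 at 111 CPM, of 5 vascular markers 5 at 18.8 CPM, and of 5 precursor markers 3 at 10.7 CPM, with Aqp4, Csf1r, Pdgfra and Olig2 at 0. Of 11 excitatory markers 9 had UMIs, at 497 CPM in sum against 1892 CPM in excitatory nuclei, with Slc17a6 and Neurod1 at 0. Their per-mouse medians were 443, 426 and 461 CPM in Awake, ISO and KETA mice. Their part in the comparisons was not tested.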

How the data were processed

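Nuclei of frozen hippocampus were profiled with the 10x Genomics 3' kit, version 3.1 in the labels and version 3 in the methods. The deposited files hold raw UMI counts for each gene in each nucleus, which the authors made with Cell Ranger 5.0.0, introns included, on the mm10 reference of 10x Genomics. Their methods add CellBender, at least 200 genes per nucleus, DoubletFinder and Harmony, while the file header names Cell Ranger alone, so it is not given in the sources used here which of these steps the deposited counts reflect, and free RNA may remain. No doublet caller was run here. Instead, nuclei over 3 times the median UMIs (7 members) were left out as an alternative.

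Groups came from the sample titles, and the group sizes differ from those in the study's text. Each mouse is 1 replicate. Members, gene lists and named genes were chosen with earlier results of these data known, the latter as the rule genes, the highest list members, the 15 leading genes and the 5 genes of smallest p per direction. UMIs were summed per mouse and tested with edgeR 4.0.16 (TMM, filterByExpr, quasi-likelihood F test, Benjamini-Hochberg, R 4.3.3). A positive log2 fold change means higher in ISO, KETA or APP/PS1. The main fit took 6 groups without a batch term. The methods name tissue batches of 4 mice that the labels do not give, so runs of consecutive mouse numbers served as a term in an alternative. The fit of both classes had the mouse as a block. DESeq2 1.42.0 was an alternative. Shares and levels per mouse were compared by two-sided exact permutation tests over all splits of the mice, with a pseudocount of 1 CPM for levels. Exact binomial intervals were from scipy 1.17.1. The scripts were tested on simulated data. Total counts per mouse limit precision as given above, and coordinates are of GRCm38. Alternatives were RLE size factors, no gene filter, stricter Pvalb and Slc17a7 conditions, thinning, a second pseudocount, leaving out mice, and, after seeing the data, members with 2 or fewer Adarb2 UMIs, mice with at least 3 members, and the KETA class term. A transgene check and a few single genes are not reported here.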

Additional observations from a re-analysis of the deposited data

Results flagged for a closer look

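The median depth of Pvalb nuclei was 13150 UMIs in KETA mouse 25, far from the other 3 KETA mice (Dixon's test), and this mouse supplied 7 of the 15 KETA nuclei. The mitochondrial share of Pvalb UMIs was 0.429% in mouse 4, far from the other 3 APP/PS1-ISO mice. In all, 20 such comparisons of samples within groups were made, of which chance flags about 1 in 20.

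The response to anesthesia differed between Pvalb nuclei and the other GABAergic nuclei by a test of the difference itself for 5 genes. For ISO the log2 differences (Pvalb minus other) were 3.12 for Adarb2, 3.86 for Zfhx3, 2.73 for Ephb1 and -2.46 for Pde11a, and for KETA the difference of Kcnip4 was -3.23. DESeq2 called none of the 5. Without mouse 20 Zfhx3 and Ephb1 were at 1.09 and 0.63, and Kcnip4 was not called with RLE size factors or without mouse 26, 27 or 28. Of 16 nuclei set apart by at least 3 Adarb2 UMIs 8 came from ISO mice, and among the 16 Zfhx3 was at 0 in 12 and Ephb1 in 10, with 20 of 33 Zfhx3 and 25 of 32 Ephb1 UMIs in the nucleus of mouse 20. Without the 16 nuclei none of the 4 ISO genes was called, with Pde11a at -2.03 (adjusted p = 0.506 by edgeR). In the fit of both classes Pde11a also lost its call with no gene filter, without mice 1 to 4, and without mouse 4 or 17 alone. Causes were not tested.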

How the results depend on the processing

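With no gene filter (16572 genes), edgeR called 5 genes for ISO (Adarb2, Zfhx3, Cacna2d1, Pde11a and Fgf13), 4 for KETA (Kcnip4, Cst3, mt-Co1 and mt-Co3) and 4 for the genotype difference of the ISO response (Pld5, 6530403H02Rik, Rgs6 and Trpm3), where the main fit called 0 in each. Some of these genes were counted thinly. Pld5 and 6530403H02Rik each had 27 UMIs, in 5 and 4 mice, and Zfhx3 had 36 in 6 mice. Rgs6 had 87 UMIs in 7 mice and Trpm3 155 in 11 mice. DESeq2 called 1 gene for KETA. The 4 genes whose ISO response differed between classes became 0 with DESeq2, 0 against Sst, Vip and Lamp5 nuclei only, 0 without nuclei of 3 or more Adarb2 UMIs, and 1 in mice with at least 3 Pvalb nuclei. Kcnip4 for KETA was not called with RLE size factors (-2.47, adjusted p = 0.201) either. Fewer nuclei or mice enter the settings that restrict the class, the Adarb2 count or the mice. DESeq2, RLE size factors and the fit with no filter hold the same nuclei and mice, and there the cause was not tested.

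The share difference for KETA turned to 1.36 points at 1500 UMIs per nucleus (exact permutation test, p = 0.231). For genotype it turned to -0.0198 points at that depth, -0.0688 without the Adarb2 nuclei and -0.663 without mice 1 to 4. The Pvalb level turned to 0.0843 (ISO) and 0.11 (KETA) over all GABAergic nuclei, and to 0.19 (KETA) without mice 1 to 4. Among single genes that had not passed, Nfib turned to 1.05 in nuclei of 2 or more Pvalb UMIs and Gm6994 ran from -1.51 to 1.17 (the latter without mouse 28) over mice left out. In the class comparison without the Adarb2 nuclei, Zfhx3 was at -5.30, on 3 UMIs in 99 nuclei, and Adarb2 at -1.005, which the removal by Adarb2 count itself sets.

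Leaving out each mouse in turn, the share difference ran from -1.27 to -0.376 points for ISO, -1.13 to -0.0136 for KETA and -0.254 (without mouse 2) to 0.609 for genotype. The Pvalb level ran from -0.51 to 0.24 for ISO, -0.63 to 0.12 for KETA and -0.19 to 0.40 for genotype, with the low end of each without mouse 19. Genes called stayed at 0 for ISO, genotype and their interaction, and ran from 0 to 1 for KETA (Gm42418, without mouse 3). Those differing between classes ran from 1 (without mouse 17) to 5 (without mouse 13) for ISO, with 2 without mouse 20, and from 0 (without mouse 26, 27 or 28) to 3 (without mouse 25) for KETA. Adarb2 kept its call in each of the 19 fits.

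Mouse numbers occur in 1 group each and pair no groups. With the run of mouse numbers as a term, 0 genes were called for ISO, KETA, genotype and their interaction, with 46, 33, 62 and 21 at an unadjusted p under 0.05. The fit of both classes held the mouse as a block throughout. The Pvalb of 2 or more and the 3-member settings were fitted only for some comparisons, as groups then lacked mice. Precision was limited by depth, with 91 of the 115 nuclei chosen on 1 Pvalb UMI and sums as low as 4833 UMIs per mouse.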

Other observations

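Activity-regulated genes, which follow neuronal firing, were counted too thinly in the Pvalb nuclei for the main test. Of 30 such genes 25 had a UMI and 0 passed the filter, and the list summed to 206.9 to 549.7 CPM (median 409) per mouse in Awake, 0 to 457 CPM (median 166) in ISO and 163 to 371 CPM (median 248) in KETA mice. Nr4a1, an orphan nuclear receptor induced by activity, had 24 UMIs, of which 22 came from Awake mice, 1 from ISO and 1 from KETA mice. Fitted without the filter, its log2 fold change for ISO was -3.50 ± 0.94 (adjusted p = 0.318 by edgeR). Homer1, a postsynaptic scaffold gene with an activity-induced short form, had 44 UMIs in Awake, 14 in ISO and 4 in KETA mice. The Pvalb nuclei of these states summed to 368165, 259452 and 117277 UMIs. By edgeR without the filter, Homer1 was at -1.34 ± 0.59 for ISO (adjusted p = 0.996) and -3.38 ± 1.30 for KETA (adjusted p = 0.994). Nr4a1 and Homer1 were singled out after their values were seen, and neither passed the test.

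Of the other lists, the 18 circadian clock genes summed to a median of 1819 CPM in Awake, 1768 in ISO and 1855 CPM in KETA mice. The 90 genes of oxidative phosphorylation summed to 3253, 3272 and 2303 CPM, the 20 chaperones to 1171, 1108 and 697 CPM, the 101 ribosomal protein genes to 2727, 2203 and 2829 CPM, and the 11 glucocorticoid response genes to 710, 537 and 756 CPM, in the same order. In each the per-mouse ranges of ISO and Awake mice overlapped.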
